A study of Mus musculus with 8 samples.

Results

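The genes described are 6 enzymes that build proline from glutamate and ornithine or break it down again: Aldh18a1, Pycr1, Pycrl, Prodh, Oat and Aldh4a1. They were taken by gene symbol from the deposited FPKM values (fragment counts divided by transcript length and library size), and they are 6 of 38991 gene identifiers. The set was proposed with the levels of these genes in the knockout and the control already known. Their differences between the genotypes are therefore given as a description, without a test. All 6 passed the filter on low values, an average of 1 FPKM or more in iPHet or in iPKO.

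RNA was sequenced from mouse embryonic stem cells of 2 genotypes, iPHet (the control) and iPKO (the Prmt5 knockout), with 4 libraries each. The cells came from C57BL/6 blastocysts of embryonic day 3.5, were below passage 20 and were grown in 2i ground state medium, which blocks signals for differentiation. All lines were derived on fibroblast feeder cells with 0.5 µM PD0325901. Both genotypes received 2 µM 4-hydroxytamoxifen for 48 hours, the agent that induces the deletion at Prmt5, followed by new 2i medium, so the controls carry the treatment too. The name iPHet reads as heterozygous, and the labels do not spell out its alleles. The labels give 1 male line per genotype for most experiments, PC1 for iPHet and PC4 for iPKO, so genotype and line cannot be told apart. Whether the 4 libraries of a genotype are separate cultures is not stated, and p-values then measure only how these libraries vary, and that variation may be technical.

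Proline is made in a short route. Aldh18a1 encodes the synthase that turns glutamate into pyrroline-5-carboxylate, and Oat encodes the aminotransferase that reaches the same intermediate from ornithine. Reductases then convert it to proline, among them those encoded by Pycr1, in mitochondria, and Pycrl, in the cytosol. Prodh and Aldh4a1 encode the mitochondrial dehydrogenases that return proline to glutamate. In mouse embryonic stem cells proline supply is known to be limiting, and added proline is known to push naive cells towards a more mesenchymal, motile state.

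Prmt5 was lower in every iPKO library (11.8, 14.5, 12.4 and 15.0 FPKM for libraries 1 to 4) than in every iPHet library (52.8, 70.8, 54.3 and 72.2 FPKM), with an adjusted p of 0.00017 with limma, and of 0.19 with pairs of alike libraries averaged. The libraries were not evenly spread. Within a genotype, libraries 1 and 3, or 2 and 4, differed by a variance of 1.39 to 1.81 times that of the authors' confidence bounds over 10177 protein-coding genes, against 11.1 to 17.0 times for the other combinations. The differences of the enzymes are therefore also given for libraries 1 and 3 and for libraries 2 and 4 apart. A further property of the files touches some members and other named genes: between 20.3% and 28.2% of the 12462 tested genes per library had a deposited FPKM outside its own lower and upper bound. With no counts deposited, the depth behind each value is unknown, and the number of libraries limits the precision.

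The enzyme of the first step of synthesis was much lower in iPKO. Aldh18a1 (ENSMUSG00000025007, mm10 chromosome 19 from 40550257 to 40588463) stood at 25.3, 35.2, 29.2 and 33.3 FPKM in iPHet 1 to 4 and at 10.7, 15.2, 12.2 and 15.0 FPKM in iPKO 1 to 4. No iPKO library reached the lowest iPHet library, and within each genotype libraries 2 and 4 were above libraries 1 and 3. The iPKO mean was 43.2% of the iPHet mean. On the log2(FPKM + 1) scale, which understates changes of low genes, the difference was -1.18 in libraries 1 and 3 and -1.13 in libraries 2 and 4. All 8 values lay inside the authors' bounds. In bulk RNA, fewer cells that express a gene and less of its RNA per cell cannot be told apart.

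Pycr1, the mitochondrial reductase of the last step, showed the widest gap of the 6 genes. Pycr1 (ENSMUSG00000025140, chromosome 11 from 120635712 to 120643769) stood at 6.82, 9.85, 7.47 and 10.5 FPKM in iPHet 1 to 4 and at 2.23, 2.16, 2.16 and 3.41 FPKM in iPKO 1 to 4. The groups did not overlap, and 3 of the iPKO libraries were nearly level while iPKO 4 stood above them. The iPKO mean was 28.7% of the iPHet mean, with log2 differences of -1.35 in libraries 1 and 3 and -1.58 in libraries 2 and 4. Its FPKM also lay inside the bounds in all 8 libraries, and in iPKO 4 those bounds ran from 2.18 to 4.64 FPKM. By size of the log2 difference Pycr1 was number 58 and Aldh18a1 number 97 from the lowest of 12462 tested genes.

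Over all tested genes and 8 libraries, limma called 9.53% lower and 6.3% higher in iPKO at an adjusted p under 0.05. With pairs of alike libraries averaged, it called 0.0642% in either direction. In 15% of tested genes every iPKO library was below every iPHet library. No call is given for the members, because the genes were chosen on this contrast. With median of ratios scaling between libraries the split over all genes turned from 785 higher and 1188 lower to 994 higher and 839 lower, while Aldh18a1 and Pycr1 stayed at -1.10 and -1.42.

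**Figure D1:**
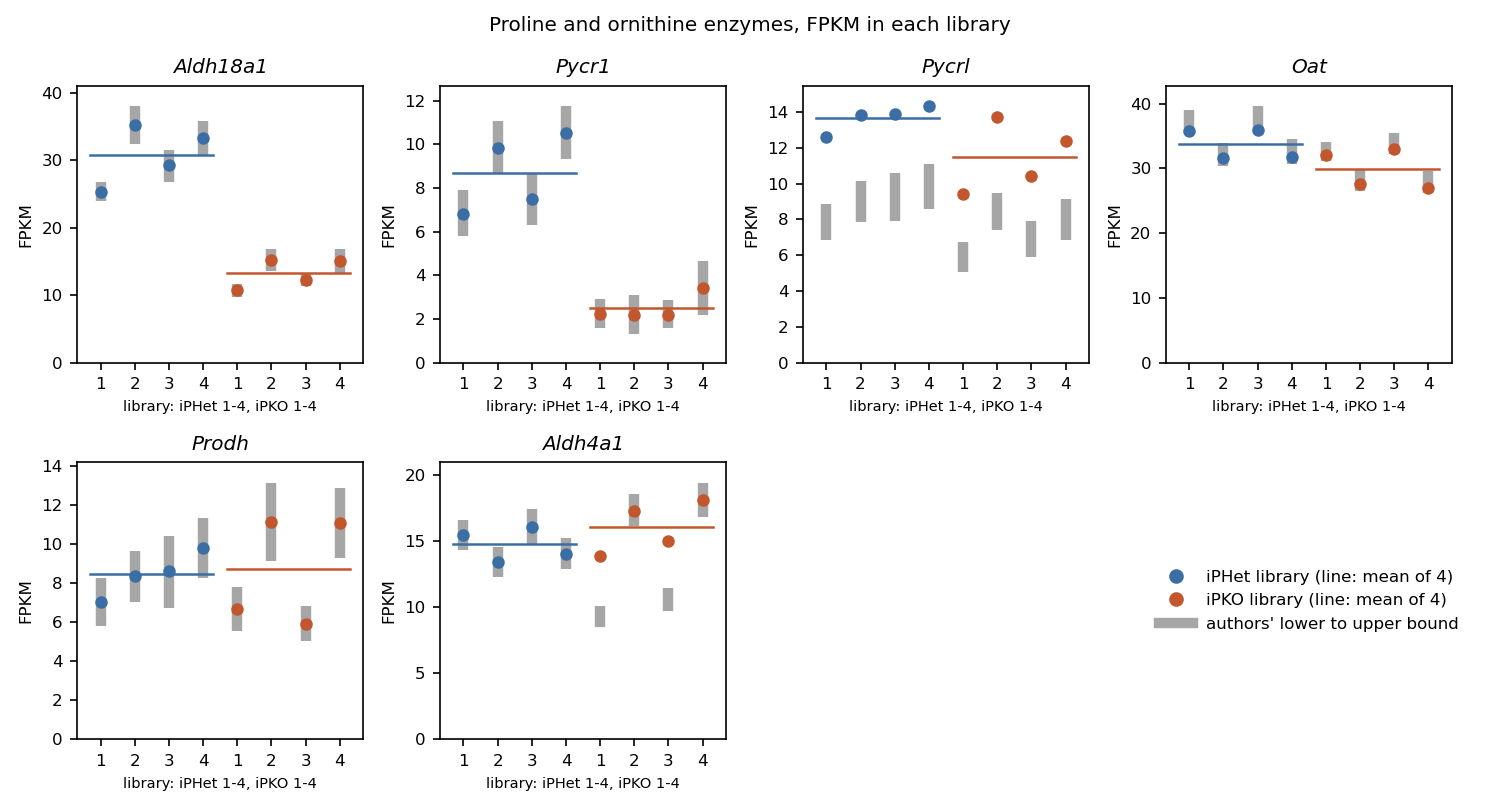
FPKM (vertical axes, each from 0) of the 6 enzymes in each of 8 libraries (horizontal axes), with points for libraries, lines for the mean of 4 and grey bars from the authors' lower to upper bound. The iPKO points of Aldh18a1 (10.7 to 15.2 FPKM) and Pycr1 (2.16 to 3.41 FPKM) lie below all iPHet points, and the points of Pycrl lie above their grey bars throughout.

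Sequence upstream of the transcription start is shown for these 2 genes because they differed most between the genotypes. ATF4, the transcription factor of the amino acid response, is known to bind composite sites with the core TGATGNAA. Both stretches run from position -200 to -31 relative to the start given by RefSeq (GRCm38.p6), 5′ to 3′ on the minus strand of the genome, at chr19:40588494-40588663 for Aldh18a1 and chr11:120643779-120643948 for Pycr1. Capitals mark a match to TGATGNAA, which was searched on both strands.

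Aldh18a1: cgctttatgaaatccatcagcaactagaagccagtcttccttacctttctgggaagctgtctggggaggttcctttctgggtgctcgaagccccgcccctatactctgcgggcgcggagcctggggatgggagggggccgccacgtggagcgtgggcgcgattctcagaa
Pycr1: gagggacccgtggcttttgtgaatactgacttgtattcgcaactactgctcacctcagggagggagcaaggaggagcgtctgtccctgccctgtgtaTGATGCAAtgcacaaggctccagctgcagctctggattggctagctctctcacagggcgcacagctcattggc

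The Pycr1 window held 1 match, TGATGCAA, beginning at position -103. The windows of Aldh18a1, Prodh, Oat and Aldh4a1, each of 300 bases with 250 before the start, held none, which says only that these letters are not in those windows. RefSeq windows were matched for 5 of the 6 enzymes. Of all 32851 windows of that length 3.97% held the motif. A match is a description of the letters, and no binding was measured.

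Pycrl, the cytosolic reductase of the same step, overlapped between the genotypes. Pycrl (ENSMUSG00000022571, chromosome 15 from 75916463 to 75921560) stood at 12.6, 13.8, 13.9 and 14.3 FPKM in iPHet 1 to 4 and at 9.45, 13.7, 10.4 and 12.4 FPKM in iPKO 1 to 4. Libraries iPKO 1, 3 and 4 were below all iPHet libraries, and iPKO 2 was above iPHet 1. Its log2 difference was -0.38 in libraries 1 and 3 and -0.10 in libraries 2 and 4. The deposited FPKM of Pycrl exceeded its upper bound in all 8 libraries, at 1.46 to 1.63 times the midpoint of the bounds, so its level is uncertain by about that factor. Taken from those midpoints, its means were 8.99 ± 0.818 FPKM (iPHet) and 7.30 ± 1.14 FPKM (iPKO) (SD, n = 4 each).

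The FPKM of Pycr1 over that of Pycrl was 0.542, 0.712, 0.537 and 0.735 in iPHet 1 to 4, and 0.236, 0.158, 0.208 and 0.276 in iPKO 1 to 4. The ratio was thus lower in each iPKO library than in any iPHet library, as was the FPKM of Pycr1 alone. With the midpoints of the bounds it was 0.808 to 1.09 in iPHet and 0.263 to 0.426 in iPKO, since the Pycrl values lie above their upper bounds.

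The ornithine branch differed little. Oat (ENSMUSG00000030934, chromosome 7 from 132557475 to 132576398) stood at 35.8, 31.6, 35.9 and 31.7 FPKM in iPHet 1 to 4 and at 32.1, 27.6, 33.1 and 27.0 FPKM in iPKO 1 to 4. The groups overlapped, yet each iPKO library was below the iPHet library of the same number or parity. The log2 differences were -0.13 in libraries 1 and 3 and -0.21 in libraries 2 and 4. Its locus lies within that of Fgfr2 in the files, a gene at 1.90 FPKM in iPHet and 1.72 FPKM in iPKO. Aldh18a1 and Oat feed the same intermediate, and the FPKM of Aldh18a1 over that of Oat was 0.707 to 1.11 in iPHet and 0.334 to 0.558 in iPKO, without overlap. The FPKM of Aldh18a1 alone did not overlap either.

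Prodh and Aldh4a1, the breakdown enzymes, were each lower in iPKO in libraries 1 and 3 and higher in libraries 2 and 4. Prodh (ENSMUSG00000003526, chromosome 16 from 18060357 to 18090203), the proline dehydrogenase of the first step, stood at 7.02, 8.37, 8.62 and 9.81 FPKM in iPHet 1 to 4. In iPKO 1 to 4 it stood at 6.69, 11.1, 5.93 and 11.1 FPKM. Libraries 1 and 3 of iPKO were below every iPHet library and libraries 2 and 4 above, so the means were 8.45 ± 1.14 and 8.72 ± 2.80 FPKM (SD, n = 4 each). The log2 difference was -0.27 in libraries 1 and 3 and 0.27 in libraries 2 and 4, and 0.00 over all 8. Prodh shares 11276 bases of its locus with Dgcr6 on the opposite strand, which was at 11.7 FPKM in iPHet and 8.95 FPKM in iPKO. The strand setting of the counting is not stated, and reads of overlapping genes can be exchanged.

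Aldh4a1 (ENSMUSG00000028737, chromosome 4 from 139622866 to 139649690), the dehydrogenase of the second step of breakdown, stood at 15.5, 13.4, 16.1 and 14.0 FPKM in iPHet 1 to 4. In iPKO 1 to 4 it stood at 13.9, 17.3, 15.0 and 18.1 FPKM. The groups overlapped, and the log2 difference was -0.12 in libraries 1 and 3 and 0.35 in libraries 2 and 4. In iPKO 1 and iPKO 3 alone the deposited value exceeded its bounds, which ran from 8.46 to 10.1 and from 9.68 to 11.5 FPKM. With the midpoints of the bounds the mean was 13.8 ± 4.55 FPKM in iPKO against 14.7 ± 1.25 FPKM in iPHet (SD, n = 4 each), and the log2 difference over 8 libraries turned from 0.11 to -0.14. The direction of Aldh4a1 over all 8 libraries therefore depends on which of the deposited values is read. Aldh4a1 also shares 26825 bases of its locus with Gm21969 on the same strand, which reached at most 0.0159 FPKM in any library. Whether this overlap bears on the values outside the bounds was not tested.

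**Figure D2:**
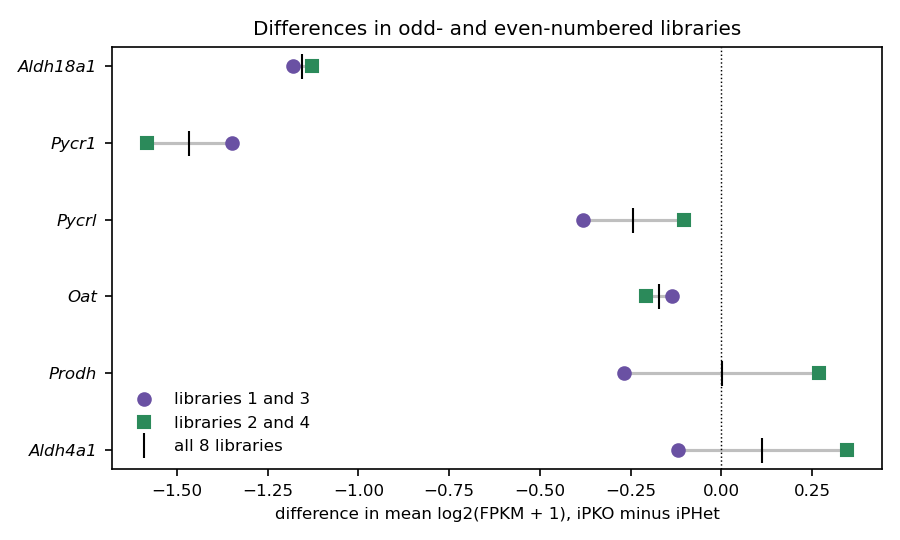
Difference in mean log2(FPKM + 1), iPKO minus iPHet (horizontal axis), of the 6 enzymes (vertical axis), with circles for libraries 1 and 3, squares for libraries 2 and 4 and bars for all 8. Aldh18a1 and Pycr1 lie below -1 in both sets. Prodh and Aldh4a1 lie below 0 in libraries 1 and 3 and above 0 in libraries 2 and 4.

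Opposite directions in libraries 1 and 3 and in libraries 2 and 4 occurred in 2 of the 6 enzymes, Prodh and Aldh4a1, and in 34.5% of all tested genes. The median log2 difference of the 6 was -0.21, beside -0.04 over all tested genes. Aldh18a1 and Pycr1 were also set against the breakdown enzyme of the same step. The FPKM of Aldh18a1 over that of Aldh4a1 was 1.64 to 2.63 in iPHet and 0.771 to 0.878 in iPKO. With the midpoints of the bounds, which lie far below the Aldh4a1 FPKM in iPKO 1 and 3, the iPKO range was 0.833 to 1.16 and stayed below the iPHet range of 1.64 to 2.63. For Pycr1 over Prodh the ratio was 0.867 to 1.18 in iPHet and 0.194 to 0.365 in iPKO. Neither of these ratios overlapped between the groups, and neither did the FPKM of Aldh18a1 or of Pycr1 alone. The FPKM of Aldh4a1 and of Prodh alone overlapped, so the ratios largely restate the lower Aldh18a1 and Pycr1 values. Pycrl over Prodh did overlap, at 1.46 to 1.79 in iPHet and 1.11 to 1.76 in iPKO.

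FPKM is per length, so levels can be ordered between genes. In iPHet the order of means was Oat (33.8), Aldh18a1 (30.8), Aldh4a1 (14.7), Pycrl (13.7), Pycr1 (8.67) and Prodh (8.45 FPKM). Oat and Aldh18a1, Aldh4a1 and Pycrl, and Pycr1 and Prodh overlapped as neighbours, which leaves 3 tiers. In iPKO the order was Oat (29.9), Aldh4a1 (16.1), Aldh18a1 (13.3), Pycrl (11.5), Prodh (8.72) and Pycr1 (2.49 FPKM). Neighbours from Aldh4a1 to Prodh overlapped, although each was above the next in 4 of 4 libraries, with Oat above them and Pycr1 below. That order within iPKO rests on values above their bounds. Prodh averaged more than Pycrl on lower bounds (7.26 against 6.29 FPKM) and on upper bounds (10.2 against 8.31 FPKM), and Aldh4a1 was then above Aldh18a1 in 2 of 4 libraries. On upper bounds Pycrl averaged 10.2 and Aldh4a1 16.0 FPKM in iPHet, and on lower bounds 7.79 and 13.5 FPKM, and this pair then no longer overlapped. Pycrl overlapped instead with its next lower neighbour, Prodh on upper bounds (9.92 FPKM) and Pycr1 on lower bounds (7.52 FPKM). The place of Pycrl in the 3 tiers of iPHet therefore also rests on values above their bounds.

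The genes whose profile over the 8 libraries was nearest to that of Aldh18a1 were Notum, Atf5, Ifrd2, Shmt2 and Lrp8. Likeness was the root mean square difference of log2(FPKM + 1), each gene taken relative to its own iPHet mean, and it was 0.075 to 0.17 for these genes against a median of 0.82 over 7970 genes that averaged 5 FPKM or more. Notum encodes a secreted inhibitor of Wnt, Atf5 a transcription factor related to ATF4, and Shmt2 the mitochondrial serine hydroxymethyltransferase. For Pycr1 the nearest were Fkbp11, Ifrd2, Trh, Aldh18a1 and Notum at 0.21 to 0.28. Aldh18a1 was thus number 4 for Pycr1, whereas Pycr1 was number 28 for Aldh18a1. The FPKM of Notum, Atf5, Ifrd2, Fkbp11 and Trh lay above the upper bound in all 8 libraries. The profiles share libraries and the step between genotypes, and the order is a description.

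**Figure D3:**
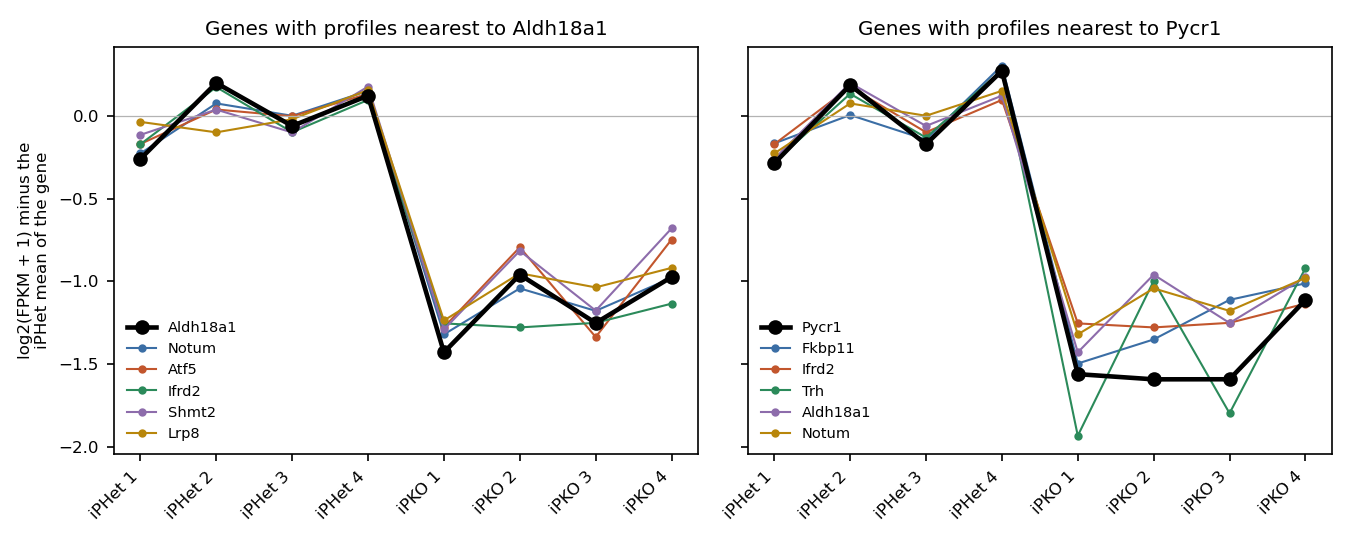
log2(FPKM + 1) minus the gene's own iPHet mean (vertical axis) in each library (horizontal axis) for Aldh18a1 and Pycr1 (thick lines) and the 5 genes with the nearest profiles (thin lines). All of them step down from iPHet to iPKO, and Notum runs closest to Aldh18a1 with a root mean square difference of 0.075.

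Other genes of proline metabolism were read from 7 lists with 90 genes, of which 66 were tested. Of these 6 rose, 11 fell and 49 were not called with limma at a Benjamini-Hochberg adjusted p under 0.05, while 15.8% were called over all tested genes. By direction 9.53% of all tested genes were called lower and 6.3% higher, the background for each list below. With libraries 1 and 3, and 2 and 4, averaged within a genotype, limma called 0 of the 66, beside 0.0642% of all tested genes (12 of the 66 had an unadjusted p under 0.05). The adjusted p of the 17 genes then ran from 0.395 to 0.656, or from 0.238 to 0.385 with an odd/even term, which also called 0 (19 with an unadjusted p under 0.05). With the replicate number as a block 29 were called, beside 27.5% of all tested genes, and with the midpoints of the bounds 19, beside 16.5%, with all 17 among both. With no filter on low values Atf4, Dpp3, Eif2ak4, Myc, P4htm, Pepd and Slc38a4 were not called, nor were Crtap, Dpp3 and Eif2ak4 in libraries 1 and 3 alone. Without iPHet 4 the count was 11. The calls below therefore rest on counting the 8 libraries as separate samples. In all 8 the FPKM of Dpp3, Nadk, P4htm, Slc6a7 and Xpnpep1 exceeded its upper bound, and that of Slc38a2 lay below its lower bound.

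Glutamate is the precursor of proline. Of 13 tested genes of glutamate and glutamine metabolism 1 fell, with a median log2 difference of -0.02. Glul, the glutamine synthetase that uses glutamate, fell from 45.5 ± 3.71 to 35.1 ± 1.57 FPKM (means ± SD, n = 4 each, adjusted p = 0.0135 with limma). Gls2 was 10.7 ± 3.04 and 15.1 ± 2.75 FPKM (means ± SD, n = 4 each, adjusted p = 0.147 with limma). Aldh5a1, a dehydrogenase of the route from GABA, was 1.16 ± 0.311 and 1.94 ± 0.559 FPKM (means ± SD, n = 4 each, adjusted p = 0.124 with limma, 0.0198 with the replicate number as a block). Glud1, the mitochondrial glutamate dehydrogenase, was 178 ± 12.8 and 154 ± 20.4 FPKM (means ± SD, n = 4 each, adjusted p = 0.204 with limma).

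Ornithine comes from arginine. Of 6 tested genes of arginine and ornithine handling 1 fell and 0 rose (limma at an adjusted p under 0.05), with a median log2 difference of -0.41. Slc7a1, a carrier of arginine and other cationic amino acids, fell from 34.4 ± 1.89 to 18.3 ± 0.805 FPKM (means ± SD, n = 4 each, adjusted p = 0.00032 with limma). Slc25a15, the mitochondrial ornithine carrier, was 15.2 ± 0.195 and 13.1 ± 0.815 FPKM (means ± SD, n = 4 each, adjusted p = 0.0508 with limma, and 0.0324 with the block). Asl, the lyase that releases arginine, was 13.0 ± 2.23 and 8.76 ± 2.09 FPKM (means ± SD, n = 4 each, adjusted p = 0.0747 with limma, 0.0106 with the block and 0.0307 with the midpoints of the bounds). Azin1 was 46.6 ± 10.4 and 35.0 ± 2.34 FPKM (means ± SD, n = 4 each, adjusted p = 0.123 with limma). Arg1 and Otc, which make and use ornithine in the urea cycle, were listed at 0 in all libraries. Arg2, on the same list, reached at most 0.0576 FPKM in any library.

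The list of further proline route genes held 4 tested genes, and limma called 0 of them. Nadk, the cytosolic NAD kinase, was 62.3 ± 5.07 and 52.6 ± 4.67 FPKM (means ± SD, n = 4 each, adjusted p = 0.096 with limma, and 0.0428 with the midpoints of the bounds). Nadk2, the mitochondrial NAD kinase, was 30.6 ± 2.62 and 32.7 ± 1.31 FPKM (SD, n = 4 each). Lap3 was 112 ± 16.0 and 106 ± 7.74 FPKM and Grhpr 17.3 ± 3.83 and 18.0 ± 1.47 FPKM (SD, n = 4 each).

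Of 5 tested carriers that take proline among their substrates 1 rose and 1 fell. Slc38a2, a sodium-coupled carrier of small neutral amino acids, fell from 76.9 ± 9.26 to 49.99 ± 4.24 FPKM (means ± SD, n = 4 each, adjusted p = 0.00671 with limma). Slc38a4, an imprinted relative, rose from 21.6 ± 5.18 to 44.8 ± 12.2 FPKM (means ± SD, n = 4 each, adjusted p = 0.0207 with limma), and leaving out iPHet 2, iPHet 4, iPKO 1 or iPKO 3 ended the call (0.0519 to 0.0577). Slc6a7, a proline carrier of neurons, was 11.7 ± 4.47 and 7.19 ± 4.08 FPKM (means ± SD, n = 4 each, adjusted p = 0.271 with limma, and 0.0137 with the block). Slc36a1 was 13.0 ± 2.04 and 14.6 ± 1.86 FPKM (means ± SD, n = 4 each, adjusted p = 0.431 with limma).

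Of 15 tested prolyl-tRNA synthetases and prolyl and lysyl hydroxylases with their partners 3 rose and 2 fell, with a median log2 difference of 0.13. P4hb, a subunit of collagen prolyl 4-hydroxylase and a disulfide isomerase, fell from 375 ± 36.5 to 261 ± 17.8 FPKM (means ± SD, n = 4 each, adjusted p = 0.00734 with limma). Crtap, the partner of a prolyl 3-hydroxylase, fell from 82.2 ± 3.59 to 59.1 ± 6.91 FPKM (means ± SD, n = 4 each, adjusted p = 0.0118 with limma). Plod2, a hydroxylase of lysine and not of proline, rose from 12.4 ± 0.723 to 16.7 ± 0.425 FPKM (means ± SD, n = 4 each, adjusted p = 0.00422 with limma). Leprel2, of the prolyl 3-hydroxylase family, rose from 1.09 ± 0.136 to 2.00 ± 0.218 FPKM (means ± SD, n = 4 each, adjusted p = 0.013 with limma). P4htm, a transmembrane prolyl hydroxylase named after its values were seen, rose from 4.15 ± 1.47 to 8.87 ± 1.01 FPKM (means ± SD, n = 4 each, adjusted p = 0.015 with limma).

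Of 10 tested peptidases that cleave dipeptides, release dipeptides or act at proline 1 rose and 2 fell. Pepd, the prolidase that frees proline from dipeptides, fell from 20.6 ± 0.294 to 16.7 ± 1.71 FPKM (means ± SD, n = 4 each, adjusted p = 0.0366 with limma). Leaving out any library but iPKO 2 ended the call (0.051 to 0.0855), and so did median of ratios or quantile scaling. Dpp8, which cleaves after proline, rose from 11.1 ± 0.995 to 16.2 ± 1.44 FPKM (means ± SD, n = 4 each, adjusted p = 0.00763 with limma). Dpp3, a dipeptidyl peptidase, fell from 45.1 ± 3.29 to 35.4 ± 2.54 FPKM (means ± SD, n = 4 each, adjusted p = 0.0206 with limma). Its call ended under both scalings and on leaving out iPHet 2, iPHet 4, iPKO 2 or iPKO 4 (0.053 to 0.0588). Xpnpep1 was 151 ± 8.97 and 129 ± 7.56 FPKM (means ± SD, n = 4 each, adjusted p = 0.0645 with limma).

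Of 13 tested regulators known to act on these genes or upstream of them 1 rose and 4 fell, beside 6.3% and 9.53% of all tested genes. Atf4 was 282 ± 3.23 FPKM in iPHet against 182 ± 40.7 FPKM in iPKO (SD, n = 4 each), a fall with limma adjusted p = 0.021 and log2 differences of -0.94 in libraries 1 and 3 and -0.38 in libraries 2 and 4. Without iPHet 1, 2 or 4 it was not called (0.0512 to 0.0554). The FPKM of Atf4 exceeded its upper bound in all 8 libraries, at 1.27 to 1.37 times the midpoint. The midpoint means were 216 FPKM (iPHet) and 136 FPKM (iPKO). Myc, which is known to raise proline synthesis genes and repress Prodh, fell from 2.40 ± 0.365 to 1.02 ± 0.401 FPKM (means ± SD, n = 4 each, adjusted p = 0.0164 with limma). Its iPKO mean was thus close to the filter of 1 FPKM. Mycn, on the same list and named after its values were seen, was higher than Myc in both genotypes and was not called. It was 25.1 ± 9.76 and 23.9 ± 8.92 FPKM (means ± SD, n = 4 each, adjusted p = 0.923 with limma). Among the kinases that act upstream of ATF4, Eif2ak1 fell from 13.6 ± 0.147 to 11.2 ± 0.41 FPKM (means ± SD, n = 4 each, adjusted p = 0.0141 with limma). Eif2ak4, the sensor of uncharged tRNA and named after its values were seen, rose from 12.7 ± 1.44 to 16.1 ± 0.875 FPKM (means ± SD, n = 4 each, adjusted p = 0.0369 with limma), but leaving out any library but iPHet 1 ended the call (0.0509 to 0.0923). Ppp1r15b, a phosphatase subunit that reverses the kinases, fell from 49.4 ± 0.856 to 41.9 ± 1.35 FPKM (means ± SD, n = 4 each, adjusted p = 0.0172 with limma), and was not called without iPHet 4 or iPKO 1 (0.0512 and 0.0517) or with median of ratios scaling. Trp53, a known activator of Prodh, was 138 ± 13.1 and 153 ± 22.5 FPKM (means ± SD, n = 4 each, adjusted p = 0.471 with limma).

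**Figure D4:**
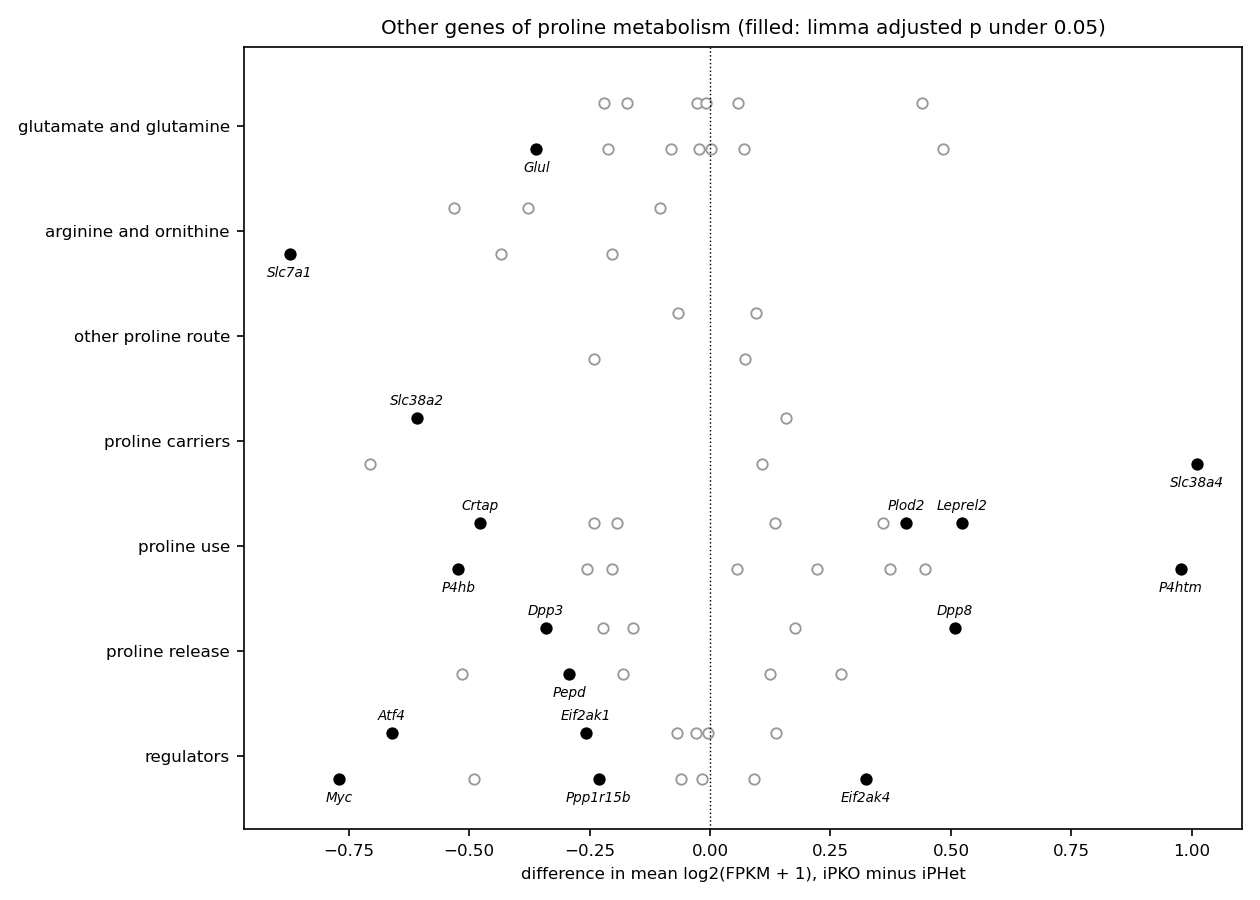
Difference in mean log2(FPKM + 1), iPKO minus iPHet (horizontal axis), of 66 tested genes in 7 lists (vertical axis), with filled points for the 17 genes called by limma over 8 libraries and open points for the rest. Filled points lie on both sides of 0, from Slc7a1 at -0.87 to Slc38a4 at 1.01.

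Markers of ground state cells were present, and the summed level of 12 such genes was 2368 to 3869 FPKM in iPHet and 2785 to 3047 FPKM in iPKO. Sox2 fell from 91.8 ± 5.31 to 70.1 ± 2.15 FPKM and Dppa3 from 28.4 ± 1.27 to 19.7 ± 3.16 FPKM (means ± SD, n = 4 each, adjusted p with limma of 0.00539 and 0.0162), and 10 were not called. The lines were derived on fibroblast feeder cells. Of 15 fibroblast markers 12 stayed below 1 FPKM in every library, among them Postn, Lum and S100a4 listed at 0, and the list summed to 3.66 to 5.24 FPKM in iPHet and 3.41 to 3.98 FPKM in iPKO. Of 7 primitive endoderm markers 5 stayed below 1 FPKM, with sums of 11.6 to 15.1 and 9.28 to 17.0 FPKM. The 7 neuroectoderm markers summed to 24.7 to 32.5 FPKM in iPHet and 17.8 to 21.0 FPKM in iPKO, and Olig2, Ncam1 and Map2 fell (limma adjusted p of 0.0147, 0.0224 and 0.0257). Sox1, the other tested gene of that list, was 1.01 ± 0.178 and 1.71 ± 0.325 FPKM without overlap between the genotypes (means ± SD, n = 4 each, adjusted p = 0.0524 with limma), and was called higher in iPKO with the block (0.0306), the midpoints (0.0412) and median of ratios scaling. Ncam1 was not called on leaving out iPHet 2, iPHet 4, iPKO 1 or iPKO 3 (0.0556 to 0.0636), nor Map2 on leaving out iPHet 2, 3 or 4 or iPKO 4 (0.0559 to 0.0652). The FPKM of Sox2 and of Olig2 exceeded its upper bound in all 8 libraries. The part of the neuroectoderm genes in the lower Aldh18a1 and Pycr1 values was not tested.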

How the data were processed

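RNA from 8 libraries was sequenced as paired reads of 100 bases with an Illumina TruSeq kit, per the labels' protocols. Per the file headers, the authors deposited an FPKM value for every gene, its confidence bounds and a status flag. The submitters' processing notes name Trimmomatic and mm10. No source used here gives the aligner, the FPKM program, the level of the bounds or scaling between libraries. Files held 39013 rows for 38991 identifiers, and rows of 19 identifiers found more than once were summed. Depth relative to iPHet 1, estimated from low values, was lowest in iPHet 3 (0.768) and highest in iPKO 1 (1.23).

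The 12462 genes averaging 1 FPKM or more in iPHet or iPKO were tested as log2(FPKM + 1) with limma 3.58.1 and an intensity trend in R 4.3.3, all 8 libraries, no covariate, Benjamini-Hochberg adjusted p under 0.05. The script was tested on simulated data with independent noise in each library, which lack the pairs of alike libraries. Gene type and strand came from GENCODE vM21 and promoter sequence from RefSeq. The members, lists and tests were chosen with earlier results of these data known. Named genes were the members, Prmt5, Atf4, Trp53 and Myc, up to 4 genes per list with the smallest p, and the 5 nearest profiles to Aldh18a1 and to Pycr1, leaving out clone-named genes and small RNAs. Alternatives changed the pseudocount, filter, scaling, block, pair averaging, libraries left out and, chosen after seeing the data, bound midpoints. Same-numbered libraries of the 2 genotypes deviated together at correlations of 0.104, 0.162, 0.204 and 0.107, all over the 0.1 taken as the limit for pairing, which comes from the data and not the labels. Other libraries of equal parity reached 0.124. Some planned results, shares among reductase genes included, are not reported here. Dab2, on more than 1 identifier, was left out.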

Additional observations from a re-analysis of the deposited data

Results flagged for a closer look

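Single libraries stood apart from the other 3 of their genotype in 4 of 116 groups of values examined for the members and named genes. For independent values chance flags about 1 group in 20, a rate that need not hold for libraries that come in alike pairs. Pycr1 was 3.41 FPKM in iPKO 4 against 2.16 to 2.23 FPKM in the other iPKO libraries. Without iPKO 4 its log2 difference was -1.58. Leprel2 was 1.68 FPKM in iPKO 1 against 2.10 to 2.13 FPKM. Dppa3 was 30.3 FPKM in iPHet 4 against 27.6 to 27.9 FPKM. Sox1 was 1.28 FPKM in iPHet 2 against 0.896 to 0.951 FPKM.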

How the results depend on the processing

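The log2 differences of Aldh18a1 and Pycr1 stayed negative under all 19 alternatives, and that of Pycr1 moved to -1.76 with a pseudocount of 0.1. Leaving out libraries, averaging pairs or changing the filter, pseudocount or block could not turn their sign, as the groups did not overlap. Aldh4a1 was -0.12 in the odd-numbered libraries, 0.35 in the even-numbered ones and -0.14 with the midpoint of the bounds. Prmt5 was not called with pair averages (log2 difference -2.13, limma adjusted p = 0.19), nor with an odd/even term as well (-2.13, 0.0991).

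The replicate number as a block raised the calls over all genes from 1973 to 3427 (1355 higher and 2072 lower) and those among the other pathway genes from 17 to 29. It ended the call of Map2 (limma adjusted p = 0.0516) and added calls of 8 named genes. Pair averages, with or without the term, called 8 genes of all and 0 of the pathway. The odd-numbered libraries alone called 5316 and 36 genes, and the even-numbered ones 4581 and 37, where Lap3 turned to 0.20 with limma adjusted p = 0.0164. With no filter 10 pathway genes were called. Leaving out 1 library gave 1264 (without iPHet 4) to 1416 genes, and 1309 without iPKO 1. Among the pathway genes leaving out 1 library gave 11 (without iPHet 4) to 15. The causes were not tested.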
